A study of Mus musculus with 1814 samples.

Results

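The E proteins and their Id inhibitors were followed in mouse germinal center B cells through 5 genes, chosen by name from a list. They are the E protein genes Tcf3, Tcf4 and Tcf12 and the inhibitor genes Id2 and Id3. All 5 were present both in the count table of experiments 1 to 4, with 25125 genes, and in that of experiment 5, with 15177 genes. Ccnd3, which encodes cyclin D3 and is a known E protein target, was followed beside them.

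E proteins are basic helix-loop-helix transcription factors. They bind DNA as dimers at a short sequence called the E-box, written CANNTG. Id proteins have the helix-loop-helix part but lack the basic part that touches DNA, so a dimer of an Id protein with an E protein does not bind the E-box. In B cells the Tcf3 products E12 and E47, together with the Tcf4 product E2-2, are known to sustain germinal center genes, and Id3 and Id2 to hold them back. Germinal centers have a dark zone, where B cells divide, and a light zone, where they test antigen and receive T cell help.

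The data are SmartSeq2 libraries of index-sorted single cells, a method that reads whole transcripts and adds no molecular identifiers. Of the 1814 wells deposited, 1338 were kept wells of experiments 1, 3, 4 and 5, and those that could be assigned to a group were used. They were Dec+ cells, labelled Dec_Positive, of the dark zone and the light zone at 12, 30, 46 and 60 h. Experiment 1 also held light zone Dec- cells at 12 h, labelled Dec_Negative. Experiment 5 held Dec+ cells of the genotypes labelled KO, TA and WT in both zones, with no time, on plates named for Ccnd3. Experiment 1 also held 40 wells labelled PB among its dark zone wells at 30 h, which are not among the grouped kept wells. The labels name no animal, strain or age, and they spell out neither Dec, KO, TA nor PB, so how the genotypes were made was not given in the sources used here. Experiment is therefore the replicate of a zone and time, and p-values measure the spread between sums of cells of 1 to 3 experiments per group, which may be technical. Dec+ against Dec-, the genotypes and PB come from 1 experiment each and have no test.

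The median total count per kept cell was 155485 in experiment 5, the lowest, and 417105 in experiment 1, the highest of the 4 experiments used. The 5 B cell markers, which include Cd79a and Pax5, were detected in every group, and their summed level was 5456 to 7090 CPM, counts per 1000000 counts of the sum, in the 7 paired dark zone sums and 4647 to 6649 CPM in the 7 light zone sums. The 6 natural killer and innate lymphoid cell markers were at or near 0 in these sums, with at most 0.892 CPM in dark zone sums and 0.743 CPM in light zone sums. T cell markers summed to 169.6 to 276.9 CPM in the dark zone and 116.3 to 235.8 CPM in the light zone. Plasma cell markers reached 4150 CPM in dark zone sums and 3931 CPM in light zone sums.

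E proteins act at E-boxes, and Tcf3 and Ccnd3 moved together across sums of cells, as described further on. For this reason the stretches just upstream of a RefSeq start of 4 of the genes are shown. Each is the 250 bases before the annotated start, 5′ to 3′ on the gene's strand, from RefSeq (GRCm38.p6), with CANNTG in capitals. They lie at chr10:80433636-80433885 for Tcf3, chr12:25096093-25096342 for Id2, chr4:136143572-136143821 for Id3 and chr17:47593217-47593466 for one of the 2 annotated starts of Ccnd3.
Tcf3: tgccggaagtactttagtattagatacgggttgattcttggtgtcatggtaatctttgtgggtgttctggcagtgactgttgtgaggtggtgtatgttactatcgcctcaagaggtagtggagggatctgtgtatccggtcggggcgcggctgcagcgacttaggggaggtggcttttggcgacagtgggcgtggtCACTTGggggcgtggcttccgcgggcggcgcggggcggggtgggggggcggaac
Id2: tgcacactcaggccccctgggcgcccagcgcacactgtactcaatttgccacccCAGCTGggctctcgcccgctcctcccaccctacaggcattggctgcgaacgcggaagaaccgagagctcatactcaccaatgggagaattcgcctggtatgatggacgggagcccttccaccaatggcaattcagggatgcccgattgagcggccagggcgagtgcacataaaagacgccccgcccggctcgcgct
Id3: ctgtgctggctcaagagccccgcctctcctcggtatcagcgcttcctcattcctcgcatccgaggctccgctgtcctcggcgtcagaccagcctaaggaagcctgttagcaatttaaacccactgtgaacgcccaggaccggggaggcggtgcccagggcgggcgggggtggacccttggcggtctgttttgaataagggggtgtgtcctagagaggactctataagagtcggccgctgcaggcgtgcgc
Ccnd3: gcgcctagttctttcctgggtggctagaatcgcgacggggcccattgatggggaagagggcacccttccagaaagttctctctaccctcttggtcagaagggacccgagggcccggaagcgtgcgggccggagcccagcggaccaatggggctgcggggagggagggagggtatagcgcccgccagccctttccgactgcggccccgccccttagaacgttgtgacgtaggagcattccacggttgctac

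The Tcf3 window held 1 E-box, CACTTG, and the Id2 window held 1, CAGCTG. The Id3 window and both Ccnd3 windows held none. Over all 32851 RefSeq promoter windows of this length, 66.2% held CANNTG, which reads the same on both strands, and 13% held CAGCTG. A match in these letters is a description of the window and not a binding site, and no match says only that these letters are not in it.

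The genes lie apart in the genome. In mm10, with GENCODE M21 annotation, Tcf3 spans chr10:80409514-80433647 on the minus strand. Tcf4 spans chr18:69343356-69689079 on the plus strand. Tcf12 spans chr9:71842688-72111871 on the minus strand. Id2 spans chr12:25093799-25097140 on the minus strand. Id3 spans chr4:136143497-136145755 on the plus strand. Ccnd3 spans chr17:47505051-47599691 on the plus strand. By these spans the RefSeq windows shown above for Id2, Id3 and Ccnd3 lie inside the gene. The window of Tcf3 overlaps the start of its gene. Exons of Ccnd3 overlap those of Bysl on the opposite strand, and SmartSeq2 does not mark strand, so reads from the shared stretch cannot be told apart.

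Across the 17 Dec+ sums of at least 10 cells, Id3 had the highest level per transcript length of the 5 genes in the median and Tcf12 the lowest. On the scale of CPM per kilobase of the median coding transcript, Id3 was at 147.5 in the median sum (35.8 to 281.5). Tcf3 was at 65 (23 to 100.7) and Tcf4 at 57.3 (26.9 to 104.8). Tcf4 and Tcf3 overlapped over most of their ranges on this scale, but with the longest transcript the Tcf4 median was 15.7, against 62.6 for Tcf3. Id2 was at 9.69 (3.25 to 23.6) and Tcf12 at 5.05 (0.0888 to 15.4), and these low genes overlapped as well. Ccnd3 was at 347.5 (199.2 to 762.2).

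Tcf3, Tcf4 and Id3 were seen in most cells and Id2 and Tcf12 in few. In the median sum, Tcf3 had a count in 74.4% of cells, Tcf4 in 71.2% and Id3 in 69%. Id2 had a count in 14.3% of cells and Tcf12 in 13%. With each cell thinned to 20000 counts, these shares were 65% for Tcf3, 54.5% for Tcf4, 61.8% for Id3, 9.09% for Id2 and 9.52% for Tcf12. In each of the 15 Dec+ sums of at least 20 cells, 46.2% to 81.2% of cells had a count both for an E protein gene and for an Id gene. Cells with a count for Id2 and also Id3 were 0% to 23.8% of these sums.

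The sum of Id2 and Id3 per kilobase was divided by that of the E protein genes. In experiment 3 it was 1.44 to 1.94 in the dark zone and 1.1 to 2.26 in the light zone. In experiment 4 it was 0.843 to 1.53 in the dark zone and 0.585 to 1.19 in the light zone sums of at least 10 cells. It was lowest in experiment 1, with 0.364 in the dark zone at 30 h and 0.355 in the light zone at 12 h. With the longest transcript of each gene the ratio was higher in every one of these sums, up to 3.23. What sets the experiments apart was not tested.

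Dark zone sums were first set against light zone sums of the same experiment and time. There were 7 such pairs, 4 of experiment 3 and 3 of experiment 4. No member passed the test, and for each of them the dark zone and light zone sums overlapped. Tcf3 was higher in the dark zone in 6 of 7 pairs, with the exception of experiment 3 at 30 h. Ccnd3 was higher in the dark zone in all 7 pairs, at a size that also failed the adjustment.

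Tcf3, which encodes E12 and E47, had 274.9, 236.5, 281.7 and 271.4 CPM in the dark zone of experiment 3 at 12, 30, 46 and 60 h, against 148.6, 250.6, 228.1 and 215.96 CPM in the light zone. In experiment 4 it had 87.1, 286.1 and 176.6 CPM in the dark zone at 12, 30 and 46 h, against 76.1, 181.4 and 118.4 CPM in the light zone. The dark zone sum of experiment 4 at 12 h was the low one of its zone, and lay within the light zone range. The means were 230.6 ± 74 CPM in dark zone sums and 174.2 ± 63.2 CPM in light zone sums (SD, n = 7 each). The log2 ratio was 0.41 ± 0.15 (SE), with an adjusted p of 0.388 by edgeR's quasi-likelihood test with Benjamini-Hochberg adjustment over 9302 genes.

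In that test 30 of 9302 genes (0.323%) passed an adjusted p of 0.05, of which 17 were higher in the dark zone (0.183%) and 13 lower (0.14%). At an unadjusted p under 0.05, 875 genes passed (9.41%), and among the members Tcf3 did, with a p of 0.0191. The median log2 ratio over all genes was 0.20, and the 0.41 of Tcf3 is to be set against that shift. DESeq2 called none of the members either.

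Id3, the inhibitor gene with the higher level of the pair, averaged 239.5 ± 80.8 CPM in dark zone sums and 201.6 ± 105.7 CPM in light zone sums (SD, n = 7 each). The pairs differed by time. At 12 h Id3 had 309.9 CPM in the dark zone against 123.8 CPM in the light zone in experiment 3, and 188.5 CPM against 81.8 CPM in experiment 4. At 30 h it had 237.9 CPM in the dark zone against 298.1 CPM in the light zone, and 158.7 CPM against 174.4 CPM. The dark zone was thus above the light zone in both experiments at 12 h and below it in both at 30 h. Over all pairs the log2 ratio was 0.36 ± 0.22 (edgeR, adjusted p = 0.649).

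Tcf4, which encodes E2-2, averaged 131.97 ± 23.9 CPM in dark zone sums and 141.7 ± 58.3 CPM in light zone sums (SD, n = 7 each). The experiments went opposite ways. In experiment 3 the dark zone was at or above the light zone at all 4 times, with log2 ratios of 0.00 to 0.77. In experiment 4 it was below at all 3 times, with log2 ratios of -0.55 to -0.21. The fitted log2 ratio was -0.01 ± 0.19 (edgeR, adjusted p = 0.988).

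Tcf12, which encodes HEB, and Id2 were low and their sums scattered. Tcf12 had 25.9 ± 10.2 CPM in dark zone sums and 15.6 ± 23.2 CPM in light zone sums, with a fitted log2 ratio of 1.92 ± 0.97 (edgeR, adjusted p = 0.583). Of the light zone sums, experiment 3 at 30 and 46 h had 0.518 and 0.383 CPM, while experiment 4 at 46 h had 66.4 CPM in 17 cells. Id2 had 11.8 ± 6.37 CPM in dark zone sums and 19 ± 8.92 CPM in light zone sums (SD, n = 7 each). It was lower in the dark zone in all 4 pairs of experiment 3 and in 1 of 3 pairs of experiment 4, with a log2 ratio of -0.73 ± 0.63 (edgeR, adjusted p = 0.771).

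Ccnd3 averaged 772.8 ± 154.04 CPM in dark zone sums and 631.9 ± 194.2 CPM in light zone sums (SD, n = 7 each), a log2 ratio of 0.32 ± 0.13 (edgeR, adjusted p = 0.458). The largest gaps were in experiment 4, with 942.04 CPM in the dark zone against 523.3 CPM in the light zone at 46 h, and 653.4 CPM against 404.4 CPM at 12 h. At 30 h in that experiment the levels were 1021 CPM in dark zone sums and 1004 CPM in light zone sums.

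**Figure D1:**
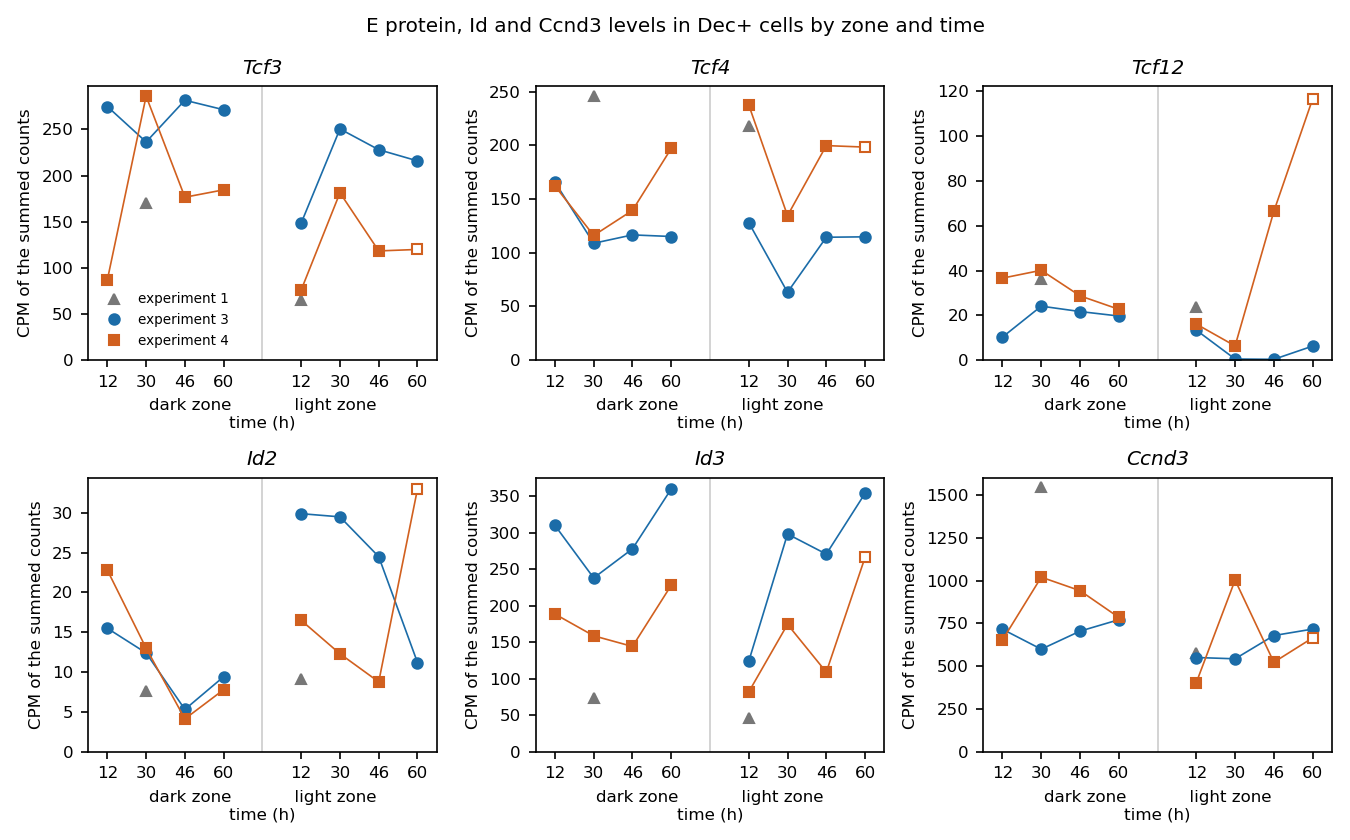
CPM of the summed counts of Tcf3, Tcf4, Tcf12, Id2, Id3 and Ccnd3 in Dec+ cells, by zone and time in h, with 1 point for each experiment and open points for the sum of 5 cells that entered no test. In both experiments with 12 and 30 h, Id3 was higher at 30 h than at 12 h in the light zone and lower in the dark zone.

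The E protein targets in B cells were described as a list of 23 tested genes, none of which was called lower in the dark zone. The median log2 ratio of the list was 0.32, beside 0.20 over all genes. Cxcr4, the chemokine receptor of dark zone cells, had a log2 ratio of 3.22 ± 0.96 (adjusted p = 0.256 by edgeR), and Ebf1, a B cell factor that works with E proteins, -0.68 ± 0.21 (adjusted p = 0.263 by edgeR).

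The other 3 lists held no called gene between zones. Of 12 tested helix-loop-helix factors and E protein cofactors, the median log2 ratio was -0.04. Lmo4, a LIM adaptor protein, had 1.70 ± 0.67, and the acetyltransferase gene Kat2a -1.18 ± 0.44, both failing the adjustment. Of 16 tested inputs to Id genes, which hold signal carriers of the TGF-beta, cytokine and Egr pathways, the median was -0.20. Stat3 had -0.67 ± 0.20 and the receptor gene Tgfbr1 1.26 ± 0.49, also failing it. Of 9 tested D cyclins and partners the median was -0.03, with Ccnd2 at -3.46 ± 1.66.

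The second comparison set 30, 46 and 60 h against 12 h within each zone, with all 17 sums in one fit, experiment as block and 11661 genes tested. No member passed edgeR's adjusted p at any time in either zone. The values with the lowest unadjusted p were those of Id3 in the light zone at 30 and 60 h, and DESeq2 called Id3 in the light zone at all 3 times. Tcf3 was the E protein gene with the largest positive light zone values.

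Light zone Id3 had 123.8, 298.1, 270.6 and 353.8 CPM at 12, 30, 46 and 60 h in experiment 3, and 81.8, 174.4 and 108.9 CPM at 12, 30 and 46 h in experiment 4. Experiment 1 had 45.8 CPM at 12 h. Every light zone sum after 12 h in experiments 3 and 4 was above the 12 h sum of its own experiment. The log2 ratios against 12 h were 1.20 ± 0.27 at 30 h, 0.82 ± 0.27 at 46 h and 1.39 ± 0.33 at 60 h, the last resting on 1 sum of 21 cells. By edgeR the adjusted p was 1 at 30 h, 0.209 at 46 h and 0.193 at 60 h, while the unadjusted p was 0.000542, 0.00889 and 0.000895.

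By DESeq2, the adjusted p of Id3 was 0.000202 at 30 h, 0.00893 at 46 h and 0.000678 at 60 h, with log2 ratios of 1.25, 0.88 and 1.42. The share of all genes called by edgeR was 0% at 30 h, 0.472% at 46 h (55 of 11661) and 0.12% at 60 h (14 of 11661). At an unadjusted p under 0.05 these shares were 3.45%, 11.5% and 7.03%. DESeq2 called 1.01%, 9.24% and 5.18% of all genes at these times. By edgeR the genes called higher were 0.0343% at 46 h and 0.0172% at 60 h. The median log2 ratio over all genes was -0.10 at 30 h, -0.30 at 46 h and -0.27 at 60 h, and the values of Id3 stand against those shifts.

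Dark zone Id3 had 309.9, 237.9, 277.8 and 359.8 CPM at 12, 30, 46 and 60 h in experiment 3, and 188.5, 158.7, 144.1 and 227.9 CPM in experiment 4. Experiment 1 had 73 CPM at 30 h. The dark zone values at 60 h were the high ones in both experiments. The log2 ratios against 12 h were -0.30 ± 0.27, -0.18 ± 0.28 and 0.24 ± 0.28, each with an adjusted p of 1 by edgeR. The share of all genes called was 0% at each time in the dark zone, and 2.19%, 4.3% and 1.66% at an unadjusted p under 0.05. DESeq2 called 0.78%, 1.16% and 0.84% of genes there, none of them a member.

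The difference between the zones in the change from 12 to 30 h was tested directly. For Id3 it was -1.51 ± 0.40, dark minus light zone, with an unadjusted p of 0.00213 and an adjusted p of 1 by edgeR. By DESeq2 it was -1.55, with an adjusted p of 0.00388. By edgeR 0% of genes passed, and 2.79% at an unadjusted p under 0.05, while DESeq2 called 1.31%.

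Tcf3 had 148.6, 250.6, 228.1 and 215.96 CPM in the light zone of experiment 3 from 12 to 60 h, and 76.1, 181.4 and 118.4 CPM in experiment 4 from 12 to 46 h. Its log2 ratio at 30 h was 1.08 ± 0.35 (edgeR, unadjusted p = 0.00756, adjusted p = 1). In the dark zone it had 274.9, 236.5, 281.7 and 271.4 CPM in experiment 3 and 87.1, 286.1, 176.6 and 184.6 CPM in experiment 4. The experiments differed here, since the 12 h sum was low only in experiment 4. The dark zone log2 ratio at 30 h was 0.80 ± 0.36 (edgeR, adjusted p = 1), and the difference between zones was -0.28 ± 0.52.

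Tcf4 had 128.01, 63.2, 114.4 and 114.8 CPM in the light zone of experiment 3 and 237.5, 134.5 and 199.7 CPM in experiment 4. In both, the 30 h sum was the low one, with a log2 ratio of -0.72 ± 0.36 (edgeR, adjusted p = 1). Dark zone Tcf4 had 165.7, 108.8, 116.6 and 115.1 CPM in experiment 3 and 162.2, 116.05, 139.4 and 197.02 CPM in experiment 4, so the 30 h sum was the low one of both there too. The dark zone log2 ratio at 30 h was -0.35 ± 0.37 (edgeR, adjusted p = 1).

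Id2 had 15.5, 12.4, 5.31 and 9.42 CPM in the dark zone of experiment 3 and 22.8, 13, 4.12 and 7.79 CPM in experiment 4. In both the 12 h sum was the highest and the 46 h sum the lowest. At 46 h Id2 was seen in 3 of 73 cells in experiment 3 and in 3 of 54 cells in experiment 4. In experiment 3, 1 of these cells held 79.1% of the count. The log2 ratio at 46 h was -2.01 ± 1.11 (edgeR, adjusted p = 1). Tcf12 had 10.3, 24.1, 21.7 and 19.7 CPM in the dark zone of experiment 3 and 36.6, 40.1, 28.7 and 22.7 CPM in experiment 4, with the 30 h sum the highest in both.

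Ccnd3 had 551.03, 543.5, 679.4 and 717.4 CPM in the light zone of experiment 3 from 12 to 60 h, and 404.4, 1004 and 523.3 CPM in experiment 4 from 12 to 46 h. The 30 h sum stood above the 12 h sum only in experiment 4. The log2 ratio at 30 h was 0.83 ± 0.31 (edgeR, unadjusted p = 0.0166, adjusted p = 1). Dark zone Ccnd3 had 716.4, 599.6, 705.2 and 772.05 CPM in experiment 3 and 653.4, 1021, 942.04 and 785.7 CPM in experiment 4. None of the 4 gene lists had a called gene at any time in either zone, nor in the difference between zones, by edgeR.

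**Figure D2:**
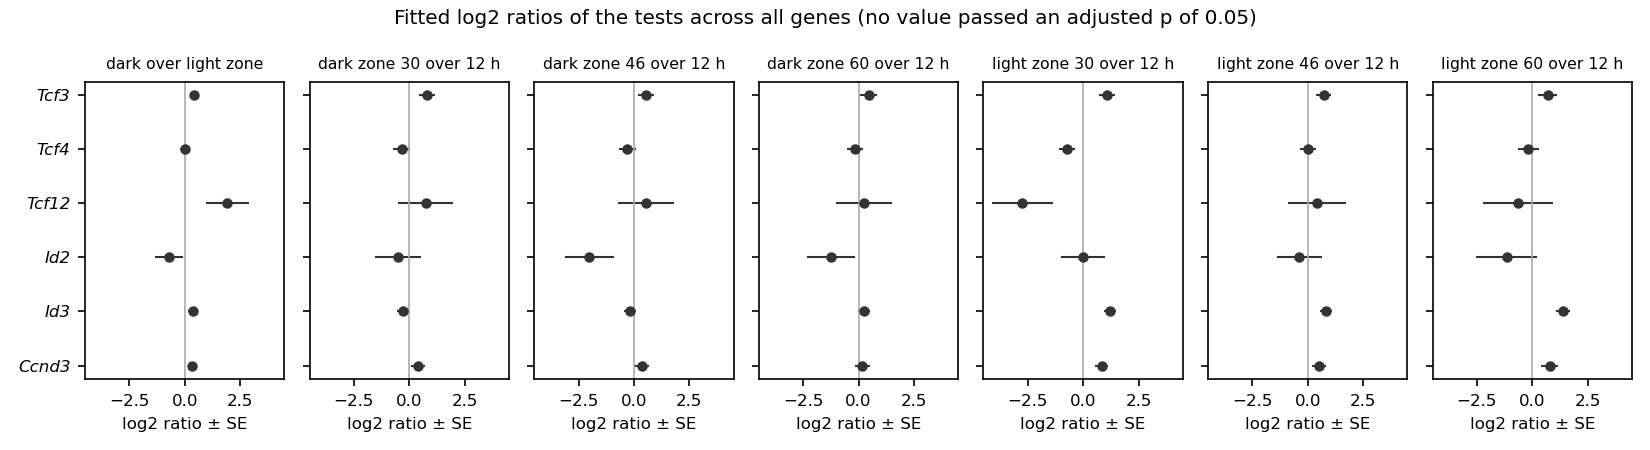
Fitted log2 ratio with its SE for each gene, between zones over 7 pairs and for each time against 12 h over 17 sums, from edgeR. The light zone values of Id3 stand at 1.20, 0.82 and 1.39, while the bars of Tcf12 and Id2 are several times wider than those of the other genes.

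The authors' deposited cell cycle phases were used to describe the same levels by phase. The phases were called from transcripts of the same cells, so no test was made. Dark zone Ccnd3 had 597.2 ± 114.02 CPM in G1 (SD, n = 2 experiments), 1094 ± 199.1 CPM in S and 1058 ± 587.05 CPM in G2M (n = 3 each). Tcf3 had 231.6 ± 128.7 CPM in G1, 149.03 ± 69.9 CPM in S and 251.97 ± 20.7 CPM in G2M. Id3 had 274.01 ± 90.9 CPM in G1, 174.2 ± 114.9 CPM in S and 169.2 ± 95.6 CPM in G2M. The means ± SD of Ccnd3 in G1 and in S did not overlap, nor did those of Tcf3 in S and in G2M, while those of Id3 overlapped in every phase. Experiment 1 had under 10 dark zone cells in G1 and gives no value there. Its Id3 was the lowest of the experiments in S (50.1 CPM) and G2M (92.4 CPM), so the G1 mean is not comparable.

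In the light zone, with n = 3 experiments for each phase, Ccnd3 had 480.6 ± 94.4 CPM in G1, 745.4 ± 152.7 CPM in S and 495.1 ± 143.7 CPM in G2M. Tcf3 had 111.5 ± 105.8, 132.6 ± 45.7 and 124.9 ± 44.2 CPM in those phases. Id3 had 170.3 ± 103.7, 111.1 ± 78 and 104.3 ± 83.6 CPM. The means ± SD of Tcf3 and of Id3 overlapped in every phase, and those of Ccnd3 in G1 and S did not. The means ± SD of Tcf4 and Tcf12 overlapped in every phase of both zones. These SDs are between experiments and leave out the pairing of phases within an experiment. Light zone Id3 was highest in G1 in experiments 1, 3 and 4, with 52.6, 248.5 and 209.7 CPM. It had 40.7, 194.9 and 97.6 CPM in S and 48, 200.3 and 64.5 CPM in G2M. Dark zone Tcf4 was lower in S than in G2M in each experiment. Id2 had 12.7 ± 1.74 CPM in G1 (n = 2), 11.4 ± 5.32 CPM in S and 7.3 ± 3 CPM in G2M of the dark zone (n = 3 each), and overlapped in every light zone phase.

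The relation of each gene to Ccnd3 was described across the 17 Dec+ sums, on log2(CPM + 1) with the mean of each experiment subtracted. Over all 17 sums Tcf3 was the member closest to Ccnd3, with a Pearson r of 0.86 and a Spearman rho of 0.84. Within experiment 3 alone Id3 was closer, with an r of 0.68 against 0.57 for Tcf3. The sums share plates, batch and depth within an experiment, so no p is given. Experiment 1 gave only a dark zone sum at 30 h and a light zone sum at 12 h. With its mean subtracted, these points mirror each other by construction, at 0.68 and -0.68 for Tcf3 and 0.71 and -0.71 for Ccnd3. The median r with Ccnd3 over all genes was 0.02, and 99.94% of genes had a lower r than Tcf3.

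The relation of Tcf3 to Ccnd3 was weaker within experiment 3, with an r of 0.57 over 8 sums, than within experiment 4, with 0.87 over 7 sums. The rho was 0.31 in experiment 3 and 0.86 in experiment 4. The r was 0.86 over the 8 dark zone sums and 0.82 over the 7 light zone sums of these experiments. Leaving out the 2 sums farthest from the median of Ccnd3, which were the light zone at 12 h of experiment 4 with 404.4 CPM and the dark zone at 30 h of experiment 1 with 1547 CPM, gave an r of 0.73. In that sum of experiment 1, a single cell held 39.8% of the Ccnd3 count and a single cell 53.6% of the Tcf3 count.

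Id3 had an r of 0.65 and a rho of 0.59 with Ccnd3, and 98.11% of genes had a lower r. Within experiment 3 its r was 0.68 with a rho of 0.76, and within experiment 4 the r was 0.71 with a rho of 0.43. The r was -0.13 over the 8 dark zone sums and 0.69 over the 7 light zone sums of experiments 3 and 4. Without the 2 sums named above it was 0.46, with a rho of 0.17. Tcf4 had an r of -0.27, made of 0.53 in experiment 3 and -0.90 in experiment 4. Tcf12 had 0.04 and Id2 -0.37. Tcf3 and Id3, an activator and its inhibitor, had an r of 0.61 with each other, which was -0.15 in the dark zone and 0.87 in the light zone.

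**Figure D3:**
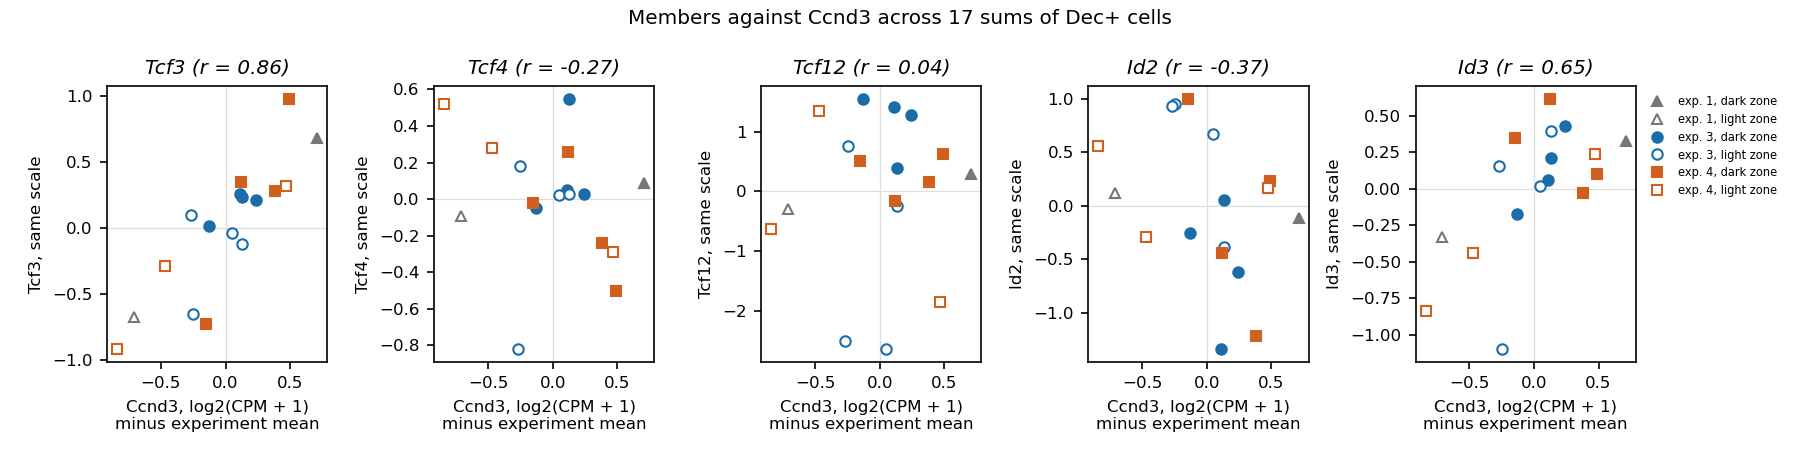
Each member against Ccnd3 across the 17 Dec+ sums, both as log2(CPM + 1) minus the mean of the experiment, with filled points for the dark zone and open points for the light zone. Tcf3 points lie along a rising line (r = 0.86), and those of Tcf12 do not (r = 0.04).

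Across single cells the relation was near that of other genes. The Spearman rho of Tcf3 with Ccnd3 within a group had a median of 0.10 over 22 groups of at least 20 cells (-0.35 to 0.61), and was above 0 in 16 of them. The group at 0.61, the light zone at 30 h of experiment 4 with 22 cells, also had a rho of 0.55 between Tcf3 and depth. The median over all genes was 0.04 (-0.03 to 0.17 between groups). For Tcf4 the median was 0.01, for Tcf12 0.03, for Id2 0.04 and for Id3 -0.02. In sparse counts such values are no finding.

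For each member the 3 genes with the most alike levels across the 17 sums, among those with a mean of at least 20 CPM, were listed by Pearson r. For Tcf3 they were Ccnd3 (0.86), Prr5 (0.85) and Cux1 (0.82). For Id3 they were Gga2 (0.83), Elf2 (0.82) and Coro1c (0.81). For Tcf4 they were Tspyl1 (0.80), Pus3 (0.79) and Rnf19a (0.79). For Tcf12 they were Mrpl33 (0.88), Klhl12 (0.85) and Phf20l1 (0.85), and for Id2 Nol8 (0.83), Cd74 (0.83) and Nsfl1c (0.82). The 3 genes most like Ccnd3 itself were Babam1 (0.93), Arl2bp (0.89) and Khdrbs1 (0.89), so Tcf3 was not among them.

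The third comparison set Dec+ cells against Dec- cells of the light zone at 12 h, both on the same 3 plates of experiment 1, and 80 of the cells were Dec-. Tcf3 was higher in Dec+ cells on each plate and Id3 lower on each plate. Each group is 1 sample, so there is no test. Intervals cover counting error only, and reads without molecular identifiers are not independent molecules.

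Tcf3 had 65.5 CPM in Dec+ cells (95% Poisson interval 64.1 to 66.8) and 28.6 CPM in Dec- cells (27.2 to 30.1). By plate it had 64.6, 83.7 and 46.9 CPM in Dec+ cells, against 13.1, 41.8 and 27.8 CPM in Dec- cells. The plate ranges did not overlap, but plates of 1 experiment are not replicates. How many of all genes had plate ranges apart in this way was not counted. The log2 ratio of the sums was 1.17 with 1 CPM added to each. Averaging single-cell CPM instead gave 0.84. Cells with a Tcf3 count were 61.4% of Dec+ cells (95% exact binomial interval 53.6% to 68.9%) and 43.8% of Dec- cells (32.7% to 55.3%). With each cell thinned to 20000 counts they were 39.8% and 26.2%.

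Among all genes with at least 20 CPM in either group, 31.1% were past 2-fold, 17.7% higher and 13.3% lower, so 2-fold differences were common between these sums. Of the members at that level, Tcf3 was past it upward and Id3 downward, and Tcf4 and Tcf12 were not past it. B cell markers summed to 4457 CPM in Dec+ cells and 7439 CPM in Dec- cells, with none of 5 at 0, and the part of this gap in the results was not tested. T cell markers summed to 238.4 and 254.2 CPM, with 1 and 7 of 10 at 0.

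Id3 had 45.8 CPM in Dec+ cells (44.7 to 47) and 99.1 CPM in Dec- cells (96.4 to 101.9), a log2 ratio of -1.10. By plate it had 48.3, 55.9 and 30.7 CPM in Dec+ cells, against 58.2, 136.4 and 92 CPM in Dec- cells. In Dec- cells 1 cell held 42.8% of the Id3 count, and with single-cell CPM averaged the log2 ratio was -0.11. Leaving out a plate gave -1.45 to -0.76, under 2-fold without the second or the third plate. Cells with an Id3 count were 49.4% of Dec+ cells (41.6% to 57.3%) and 55% of Dec- cells (43.5% to 66.2%), and these intervals overlap.

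Tcf4 had 217.5 CPM in Dec+ cells and 171.7 CPM in Dec- cells, a log2 ratio of 0.34 that was above 0 on 2 of 3 plates. Tcf12 had 23.7 and 16.4 CPM, with plate log2 ratios of -1.68 to 3.29. Id2 had 9.08 CPM in Dec+ cells and 3.66 CPM in Dec- cells, both under 20 CPM. Ccnd3 had 574.6 CPM in Dec+ cells and 597.2 CPM in Dec- cells, so the gap in Tcf3 came with a log2 ratio of -0.06 in this target.

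Among the E protein targets, 2 of 20 genes at that level were past 2-fold higher in Dec+ cells and 2 lower. Over all genes these shares were 17.7% and 13.3%. Irf4, a plasma cell factor gene, had 54.2 CPM in Dec+ cells and 5.56 CPM in Dec- cells, and Cdk6 had 108.2 and 47.4 CPM. Cd79a, of the B cell receptor, had 419.6 CPM in Dec+ cells and 1067 CPM in Dec- cells. The list's median log2 ratio was -0.21, beside 0.07 over all genes. Among the D cyclins Ccnd2 had 79.5 CPM in Dec+ cells and 14.9 CPM in Dec- cells. Of the inputs to Id genes none of 12 was past 2-fold. Among the other helix-loop-helix genes Bhlhe40 had 8.33 CPM in Dec+ cells and 70.9 CPM in Dec- cells.

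The fourth comparison set KO and TA cells against WT cells in experiment 5, on the same 4 plates. KO and TA share the WT cells, so the comparisons are not independent of each other, and each group is 1 sample with no test. As a check of the labels, Ccnd3 is given first, with 95% Poisson intervals. In the dark zone it had 89.3 CPM in KO cells (83.3 to 95.5) and 287.3 CPM in TA cells (279.6 to 295.1), against 477.05 CPM in WT cells (464.5 to 489.7). In the light zone it had 78.6 CPM in KO cells (72.9 to 84.6) and 118.9 CPM in TA cells (108.02 to 130.7), against 350.01 CPM in WT cells. KO cells were below WT cells on all 4 plates in both zones, with log2 ratios of -2.40 and -2.14. TA cells were below on all 4 plates in the dark zone, with -0.73, and on 3 of 4 in the light zone, with -1.55.

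Id2 was higher and Id3 lower in KO cells of both zones, each past 2-fold in the sums, while the sums of Tcf3, Tcf4 and Tcf12 were within 2-fold of WT cells in both zones for both genotypes. That is 2 of 5 members past 2-fold in KO cells, not far from the share over all genes. Of all genes at 20 CPM or more, 27.5% were past 2-fold in KO dark zone cells, with 11.6% higher and 15.9% lower. In KO light zone cells it was 34.8%, with 18.3% higher and 16.6% lower. In TA cells it was 18.4% in the dark zone, with 8.12% higher and 10.2% lower, and 42.6% in the light zone, with 19.1% higher and 23.5% lower.

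Id2 had 39.1, 73.9, 75.8 and 73.1 CPM on the 4 plates in KO dark zone cells, against 20.2, 5.86, 10.5 and 10.1 CPM in WT dark zone cells. Every KO plate was above every WT plate. The sums had 66.5 CPM in KO cells (61.4 to 71.9) and 10.8 CPM in WT cells (9.03 to 12.9), a log2 ratio of 2.51. An Id2 count was seen in 13 of 62 KO cells, or 21% (11.7% to 33.2%), and in 6 of 82 WT cells, or 7.32% (2.73% to 15.2%). Thinned to 20000 counts, the shares were 19.4% and 6.25%.

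On the light zone side, Id2 had 53.9, 35.7, 215.9 and 313.4 CPM on the 4 plates in KO cells, against 0, 36.5, 0 and 12.3 CPM in WT cells. The KO plates were higher on 3 of 4 plates and equal to WT on the second within 1 CPM. The sums had 149.5 CPM in KO cells (141.6 to 157.8) and 16.8 CPM in WT cells (13.5 to 20.8), a log2 ratio of 3.08. An Id2 count was seen in 18 of 61 KO cells and in 3 of 41 WT cells, or 29.5% (18.5% to 42.6%) and 7.32% (1.54% to 19.9%).

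Some of the KO cells with Id2 counts had few B cell markers. Among light zone cells 6 of 18 KO cells with an Id2 count had fewer than 3 of the 5 B cell markers, against 3 of 43 KO cells without one. In the dark zone it was 2 of 13 and 3 of 49. In the tables per plate, 2 of the 6 natural killer and innate lymphoid cell markers were seen in KO light zone cells and none in WT light zone cells, with sums of 109.2 and 0 CPM. KO and WT dark zone cells each held 2 of them, with sums of 36 CPM in KO cells and 33.2 CPM in WT cells. Of KO light zone cells, 3 of 18 with an Id2 count and 2 of 43 without one had such a marker. In the dark zone it was 2 of 13 and 0 of 49. Id2 is known as a gene that such lymphoid cells need, and the part of such cells in the Id2 values was not tested.

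Restricted to cells with at least 3 B cell markers, a limit chosen after seeing the data, Id2 had 53.6 CPM in 57 KO dark zone cells, against 10.8 CPM in 82 WT cells, a log2 ratio of 2.20. In the light zone it had 41.4 CPM in 52 KO cells, against 16.8 CPM in 41 WT cells, a log2 ratio of 1.25. The light zone value in KO cells was thus 41.4 CPM in place of 149.5 CPM, and the dark zone value 53.6 in place of 66.5 CPM.

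Other marker lists differed between KO and WT cells as well. Plasma cell markers summed to 5585 CPM in KO and 2566 CPM in WT dark zone cells, and to 3448 CPM in KO and 1459 CPM in WT light zone cells. T cell markers summed to 427.9 CPM in KO and 166.4 CPM in WT dark zone cells, with 1 of 10 absent or at 0 in each, and to 219.5 and 256.4 CPM in the light zone, with 2 and 7. The median share of mitochondrial counts was 10.8% in KO and 6.93% in WT dark zone cells, and 10.4% and 6.52% in the light zone. By the authors' phases, G1 held 48 of 62 KO and 38 of 82 WT dark zone cells. In the light zone it held 45 of 61 and 15 of 41. Within dark zone G1, Id2 had 73.9 CPM in KO and 8.88 CPM in WT cells, and Id3 62.6 and 100.8 CPM. In dark zone G2M, with 12 KO cells, Id2 had 5.95 and 13.9 CPM, and Id3 43.3 and 122.01 CPM. In light zone G1, Id2 had 191.3 and 0 CPM, and Id3 29.5 and 62.6 CPM. The part of these differences in the Id2 and Id3 values was not tested. B cell markers summed to 7150 CPM in KO and 7347 CPM in WT dark zone cells, and to 6976 and 7314 CPM in the light zone.

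**Figure D4:**
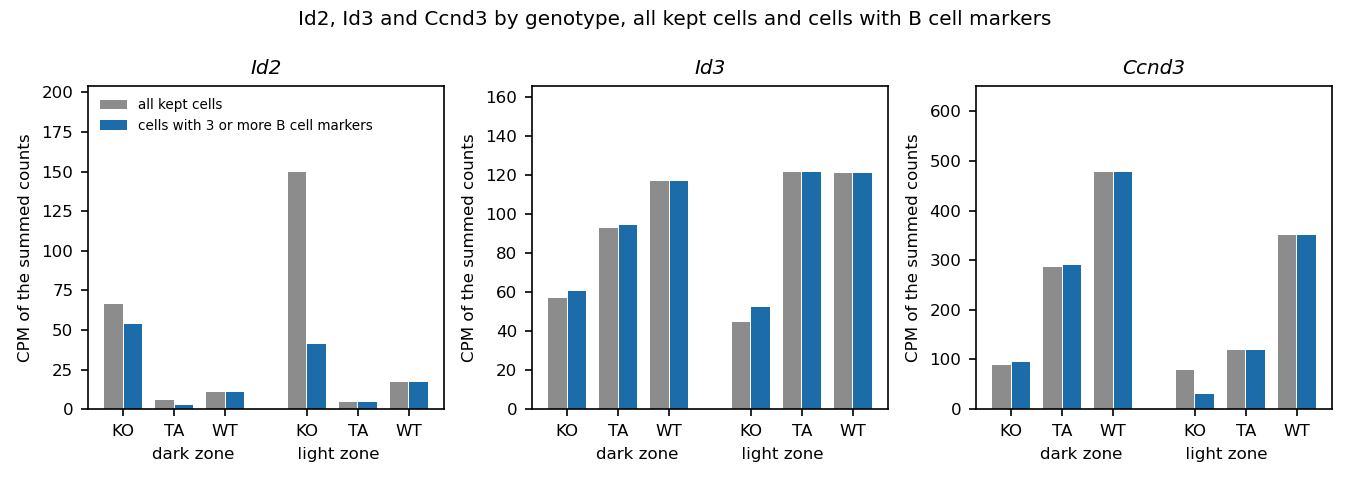
CPM of Id2, Id3 and Ccnd3 by genotype and zone in experiment 5, in all kept cells (grey) and in cells with at least 3 of 5 B cell markers (blue). The light zone KO bar of Id2 is at 149.5 CPM in all cells and at 41.4 CPM with the restriction, while the Id3 bars differ by under 10 CPM.

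Id3 had 89.3, 59.8, 18.1 and 70.2 CPM on the 4 plates in KO dark zone cells, against 75.2, 162.4, 57.6 and 159.4 CPM in WT dark zone cells. KO was lower on 3 of 4 plates and the plate ranges overlapped. The sums had 56.8 CPM in KO cells (52.1 to 61.9) and 116.9 CPM in WT cells (110.8 to 123.3), a log2 ratio of -1.03, which was -0.94 with the restriction to B cell markers and -0.79, -0.91 and -0.99 without plate 2, plate 3 and plate 4. An Id3 count was seen in 41.9% of KO cells (29.5% to 55.2%) and 62.2% of WT cells (50.8% to 72.7%).

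For light zone cells, Id3 had 59.8, 88.5, 7.73 and 10.1 CPM on the 4 plates in KO cells, against 56.3, 168.4, 66.7 and 147.2 CPM in WT cells. Again KO was lower on 3 of 4 plates, the first plate being the exception in both zones. The sums had 44.9 CPM in KO cells (40.6 to 49.5) and 121.2 CPM in WT cells (111.9 to 131.1), a log2 ratio of -1.41, or -1.19 with the restriction. An Id3 count was seen in 29.5% of KO cells (18.5% to 42.6%) and 56.1% of WT cells (39.7% to 71.5%).

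In TA cells the Id genes were within 2-fold of WT cells or under 20 CPM. Id3 had 93 CPM in TA and 116.9 CPM in WT dark zone cells, below WT on all 4 plates with a log2 ratio of -0.33. It had 121.4 CPM in TA and 121.2 CPM in WT light zone cells. Id2 had 5.48 CPM in TA and 10.8 CPM in WT dark zone cells, seen in 1.98% of TA cells. It had 4.65 CPM in TA and 16.8 CPM in WT light zone cells, where the TA sum held 22 cells.

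The sums of the E protein genes were within 2-fold of WT. Tcf3 had 91.7, 182.9, 42.7 and 89.6 CPM on the 4 plates in KO dark zone cells, against 85.3, 153.1, 80.8 and 108.1 CPM in WT dark zone cells. Its sums were 93 CPM in KO and 80.7 CPM in TA cells, against 109.6 CPM in WT cells, with log2 ratios of -0.23 and -0.44. Light zone sums of Tcf3 were 80.9 CPM in KO and 60.7 CPM in TA cells, against 98.8 CPM in WT cells, with -0.28 and -0.69. TA was below WT for Tcf3 on all 4 plates in the dark zone, at sizes of -0.11 to -0.98. In the light zone the plate log2 ratios were -0.11, -2.44, -0.16 and -0.01, and the -2.44 came from 3 TA cells. The light zone value, from 22 TA cells, was 0.20 without the second plate and -1.69 without the fourth.

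Tcf4 had 218.2 CPM in KO and 151.6 CPM in TA cells, against 176.2 CPM in WT cells, in the dark zone. In the light zone it had 160.2 CPM in KO and 240.3 CPM in TA cells, against 147.5 CPM in WT cells. Tcf12 had 41.2 CPM in KO and 53.2 CPM in TA cells, against 45.9 CPM in WT cells, in the dark zone, and plate log2 ratios of -4.38 to 1.09 between KO and WT. The log2 ratio of Tcf12 between TA and WT light zone cells was 0.04, and -3.99 without the fourth plate. For both genes the plate log2 ratios lay on both sides of 0 for each genotype and zone.

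**Figure D5:**
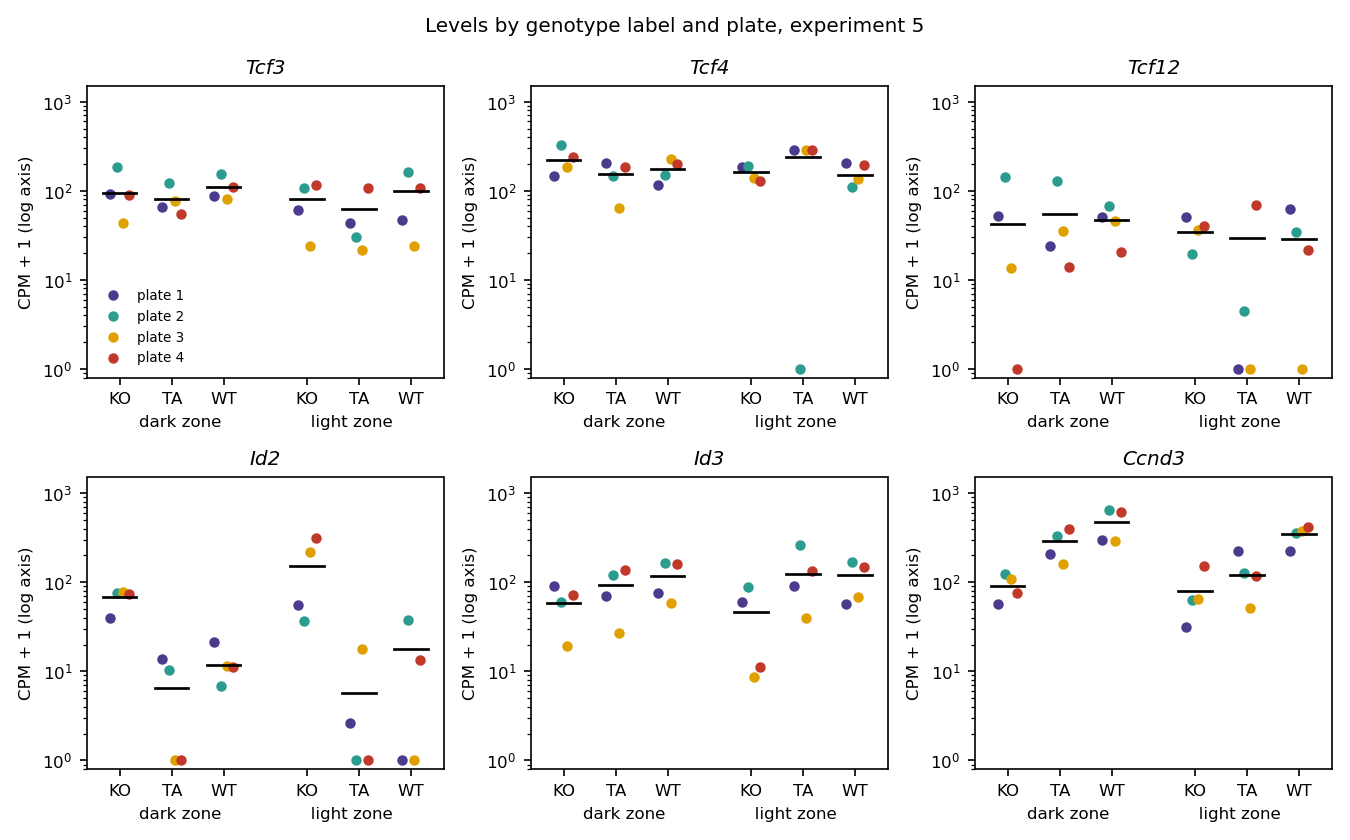
CPM + 1 on a log axis for each member and Ccnd3 in experiment 5, with 1 point for each of 4 plates and a bar for the sum over plates, for KO, TA and WT cells of each zone. All 4 KO points of Id2 lie above all 4 WT points in the dark zone, while points of Tcf3 intermingle. Plates are not replicates, and how many of all genes are apart in this way was not counted.

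Of the E protein targets, 1 of 23 genes at 20 CPM or more was past 2-fold higher in KO dark zone cells, which was Irf4 with 22.2 CPM against 7.83 CPM in WT cells, and 1 lower, which was Ccnd3 itself. The list's median log2 ratio was -0.11, beside -0.16 over all genes. In KO light zone cells 3 of 24 were higher and 2 lower. Prdm1, the plasma cell regulator, had 36.4 CPM there and was listed at 0 in WT cells. In TA cells none of 21 was past 2-fold in the dark zone, and 2 of 22 were lower in the light zone, Vpreb3 with 19.1 CPM against 60.5 CPM in WT cells and Ccnd3.

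Of the inputs to Id genes, 2 of 13 were past 2-fold higher in KO dark zone cells and 2 lower. The immediate early gene Egr1 had 111.7 CPM in KO and 22.5 CPM in WT cells, and Egr2 53.2 and 15.1 CPM. Smad5 had 16.4 CPM in KO and 53.9 CPM in WT cells, and the receptor gene Il4ra 69.8 and 180.3 CPM. Among light zone cells 3 of these inputs were higher and 3 lower. Egr2 had 6.74 CPM in KO and 23.8 CPM in WT light zone cells, the other way from the dark zone, and Stat3 238.5 and 93.4 CPM.

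Of the D cyclins and partners, Ccnd2 had 76.5 CPM in KO and 8.78 CPM in WT dark zone cells, and 73.6 and 11 CPM in the light zone. Rbl1, a pocket protein gene, had 39.5 CPM in KO and 99.5 CPM in WT dark zone cells, and 23.2 and 121.8 CPM in the light zone. Among the other helix-loop-helix genes, the repressor genes Bhlhe41 and Bhlhe40 had 75.2 and 25.3 CPM in KO dark zone cells and were both listed at 0 in WT dark zone cells.

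Within the genotype groups, the Spearman rho of Tcf3 with Ccnd3 across cells was -0.09 in KO, 0.08 in TA and 0.09 in WT dark zone cells. For light zone cells it was 0.15 in KO, -0.13 in TA and 0.19 in WT cells. Id2 had a rho of 0.43 with Ccnd3 in KO light zone cells. In these cells 1 cell held 28.3% of the Ccnd3 count, and the Ccnd3 level was 30.7 CPM with the restriction to B cell markers, in place of 78.6 CPM.

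The last comparison set the 40 wells labelled PB against the other 42 dark zone wells at 30 h of experiment 1, on 1 plate and with no test. No member was past 2-fold, against 42.5% of all genes at 20 CPM or more. Id3 had 121.6 CPM in PB and 70.1 CPM in the other wells, but 1 cell held 71% of the PB count. Tcf3 had 218.6 and 163.9 CPM, with 61% and 53.6% of the count in 1 cell. Ccnd3 had 768.8 CPM in PB and 1486 CPM in the other wells, a log2 ratio of -0.95, with 39.8% of the count of the other wells in 1 cell. Tcf4 had 199.5 and 236.4 CPM, Tcf12 22.8 and 34.5 CPM, and Id2 10.8 and 7.29 CPM.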

How the data were processed

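The deposited values are expected counts, estimated read counts per gene and well that are not normalized. Per the submitters' processing notes the build is mm10 and the tools are STAR (2.6), RSEM (1.3.1) and Seurat (3.1.4), and what each of them did is not given in the sources used here. Percent mitochondrial counts and cell cycle phases are the authors' deposited values per cell.

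Cells the authors kept were summed per experiment, zone and time, and sums of at least 10 cells were rounded. CPM are counts per 1000000 of the summed counts. edgeR 4.0.16 (R 4.3.3) was run with TMM factors, its expression filter and the quasi-likelihood test, with Benjamini-Hochberg adjustment over all genes and a threshold of 0.05. Zones were compared within blocks of experiment and time, and times with experiment as block. Labels and plates give this pairing, since both zones of an experiment and time were sorted onto the same plates. DESeq2 1.42.0 was an alternative. Comparisons within 1 experiment are log2 ratios of CPM + 1 with no test, past the fold at a log2 ratio of 1 or more either way among genes at 20 CPM or more. Shares have exact binomial intervals and sums exact Poisson intervals, at 95%.

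In simulated data the zone test recovered 7 of 50 genes changed by 2-fold and 27 of 50 changed by 4-fold, among 9302 genes. The 30 over 12 h test in the dark zone recovered 0 of 50 and 9 of 50 among 11661 genes.

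The 288 wells of experiment 2 were not analysed here, because 255 columns of the combined table could not be tied to a well. The dark zone cells of experiment 1 are labelled 30 h, which was used, while the authors' cell annotation gives another time. No 2 wells had identical values. PB wells were read from the table of their plate. Doublets were not called. Zones are the sorted labels, and 97 cells carry the authors' marks for both zones.

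Genes named are the 5 members and Ccnd3, the 3 genes most alike to each, every called gene of a list and up to 4 of each list with the largest log2 ratio in a comparison described. The members and lists were chosen with earlier results of these data known, so no list is independent support. Some genes of these lists are not reported here. Positions are from GENCODE M21 and promoter sequences from RefSeq (GRCm38.p6).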

Additional observations from a re-analysis of the deposited data

Results flagged for a closer look

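In 48 groups, of 7 sums or 4 plates each, the highest and lowest value were compared with the rest. Of these groups 5 had a value standing apart, and chance flags about 1 in 20 groups. Among the light zone sums, Tcf12 stood apart at 66.4 CPM in experiment 4 at 46 h, a sum of 17 cells. Among the KO dark zone plates, Id2 stood apart on the low side at 39.1 CPM, on the first plate, where the other 3 had 73.1 to 75.8 CPM.

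The other such values were in the TA light zone plates, which held 3 to 7 cells each. Tcf4 was lowest there at 0 CPM on the second plate. Tcf12 was highest at 68.5 CPM on the fourth plate, and Id2 was highest at 16.6 CPM on the third plate.

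For 2 members the change from 12 to 30 h went opposite ways in the dark and light zone in both experiments 3 and 4. For Id3 the difference between the zones was -1.51 on the log2 scale, dark minus light zone, with Id3 lower at 30 h in both dark zone pairs and higher in both light zone pairs. Its adjusted p was 1 by edgeR and 0.00388 by DESeq2. For Tcf12 the difference was 3.48, with an adjusted p of 1 by edgeR. Tcf12 was higher at 30 h in both dark zone pairs and lower in both light zone pairs. These values rest on few cells. In experiment 3, Tcf12 was seen in 1 of 22 light zone cells at 30 h and in 5 of 43 dark zone cells at 12 h.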

How the results depend on the processing

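Of 474 tested values of the members and Ccnd3 under an alternative, 446 kept their direction and side of the threshold, 4 passed it, none lost it and 24 changed sign. The 4 were those of Id3 by DESeq2, 1.25, 0.88 and 1.42 in the light zone at 30, 46 and 60 h and -1.55 for the difference between zones. Of the values without a test and with plates, all but 6 moved by less than the spread between plates. For PB, with 1 plate, 19 stayed within the counting interval. The other 5 were outside it with single-cell CPM averaged, with log2 ratios of -0.21 for Tcf3, 0.08 for Tcf4, 0.96 for Tcf12, 0.30 for Id3 and -0.54 for Ccnd3. No untested value past 2-fold changed sign. The cause of each move was not tested.

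By DESeq2, 5.07% of genes passed between zones, against 0.323% (30 genes) by edgeR. It called 0.78%, 1.16% and 0.84% of genes in the dark zone at 30, 46 and 60 h, 1.01%, 9.24% and 5.18% in the light zone, and 1.31% for the difference between zones, where edgeR called none but 0.472% (55 genes) and 0.12% (14 genes) in the light zone at 46 and 60 h. Between zones edgeR called 0.0317% in sums of at least 20 cells (3 genes), 0.152% with the tables per plate (16) and 0.716% without cells marked for both zones (66). At 46 h in the light zone it called 0.172% with the tables per plate (30), and no value could be fitted for sums of at least 20 cells. At 60 h it called 0.0429% with no filter (6), 0.247% in sums of at least 20 cells (29) and 0% with the tables per plate. Leaving out an experiment gave 0% to 0% of genes between zones and at 60 h in the light zone, and 0% to 0.362% at 46 h, where the 0% was without experiment 1. Averaging single-cell CPM, 17.4% of genes were past 2-fold between Dec+ and Dec- cells, against 31.1%, and 26.2% between PB and other wells, against 42.5%. Leaving out a plate, the share past 2-fold was 33.6% to 40.7% between Dec+ and Dec- cells, 31.4% to 32.9% and 38.8% to 41.7% between KO and WT dark and light zone cells, and 21.9% to 23.9% and 46.6% to 54.2% between TA and WT cells. The r of Id3 with Ccnd3 was 0.46 without the 2 farthest sums, against 0.65.

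Without the replicate block, 1 gene (0.0108%) passed between zones and 1 (0.00858%) in the light zone at 60 h. Without it the log2 ratio of Tcf4 was 0.16 in the dark zone at 30 h and -0.31 in the light zone at 46 h, that of Tcf12 -0.14 in the dark zone at 60 h, that of Id2 0.22 in the light zone at 30 h and that of Ccnd3 0.30 for the difference between zones. No member's call changed without the block.

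Id2 at 30 h in the light zone, -0.01 as reported, was 0.04 by DESeq2, 0.05 with RLE factors, 0.03 with no filter, 0.05 in sums of at least 20 cells, 0.02 with the tables per plate and 0.07 without cells with T cell markers. Tcf4 between zones was 0.07 in sums of at least 20 cells. Leaving out an experiment, the zone log2 ratio of Tcf4 ranged from -0.44 to 0.28. In the dark zone the range was -0.74 to 0.05 for Id2 at 30 h, -0.16 to 1.10 for Tcf12 and -0.01 to 0.72 for Ccnd3 at 46 h, and -0.02 to 1.09 for Tcf3, -0.53 to 0.28 for Tcf4 and -0.69 to 0.94 for Tcf12 at 60 h. In the light zone it was -0.33 to 0.38 for Id2 at 30 h, and -0.12 to 0.25 for Tcf4 and -5.12 to 2.09 for Tcf12 at 46 h. For the difference between zones it was -1.02 to 0.45 for Tcf3. Precision is limited by the 1 to 3 sums per zone and time, the few cells in the light zone sums and the low counts of Tcf12 and Id2.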
